A study of Mus musculus with 8 samples.

Results

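The genes of glycolysis and pyruvate metabolism described here are 40 genes chosen by name for their enzymatic or transport role, and all 40 were found among the 27594 genes of the count table and passed the filter on low counts, which 14540 genes passed. They span glucose uptake (2 genes), hexokinases and glucose-6-phosphate isomerase (4), phosphofructokinase 1 (3), the bifunctional phosphofructokinase 2 enzymes with Tigar (4), the steps from aldolase to pyruvate kinase (10), lactate formation and transport (4), the mitochondrial pyruvate carrier (2), the pyruvate dehydrogenase complex (4), its inhibitory kinases (3), the transcription factor Hif1a (1) and the pentose phosphate pathway (3). Their transcripts were measured by RNA sequencing in regulatory T (Treg) cells sorted from C57BL/6 mouse spleen and peripheral lymph nodes, the mice being 6 to 8 weeks old. The cells were resting Treg (rTreg) cells, sorted as CD4+YFP+ cells low in CD44, and activated Treg (aTreg) cells, sorted as CD4+YFP+ cells high in CD44. WT mice carried Foxp3-YFP-Cre, a knock-in that makes a YFP and Cre fusion wherever Foxp3 is expressed, and cKO mice carried the same allele with Foxp1fl/fl, so that Foxp1 was deleted in Foxp3-expressing cells. Each of the 4 groups, WT rTreg, Foxp1-deficient (cKO) rTreg, WT aTreg and Foxp1-deficient (cKO) aTreg, held 2 libraries, and nothing in the labels says how many mice gave a library.

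Glycolysis splits glucose into pyruvate, which is either reduced to lactate and exported or carried into mitochondria, where the pyruvate dehydrogenase complex turns it into acetyl-CoA. The pyruvate dehydrogenase kinases phosphorylate and inhibit that complex, and the pentose phosphate pathway branches from glucose 6-phosphate to make NADPH and ribose, with transketolase returning carbon to glycolysis. Many glycolytic genes are targets of Hif1a and Myc, and T cell activation is generally accompanied by higher glucose use, whereas quiescent T cells rely more on mitochondrial oxidation.

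The libraries held between 6373170 and 15268623 counts, and the lowest count of any of the 40 genes in a library was 7 (Hk3). Foxp1, the targeted gene, was at 353 and 384 CPM (counts scaled to library size after TMM normalization) in WT rTreg, 342 and 338 in cKO rTreg, 234 and 230 in WT aTreg and 126 and 102 in cKO aTreg cells. Its log2 change in cKO cells was -0.12 in rTreg (edgeR adjusted p = 0.46) and -1.03 in aTreg cells (edgeR adjusted p = 0.00194). Gene-wide counts include exons outside the floxed segment, so the rTreg value does not show whether that segment was deleted. The paper reports a complete loss of Foxp1 in YFP+ Treg cells of cKO mice, not split by subset, by immunoblot, mRNA level and intracellular staining. Why the value differed between the subsets was not tested. Xist had at most 3 counts in the replicate 1 libraries and 15098 to 21822 in the replicate 2 libraries, so the replicate numbers differ in this RNA of the inactive X chromosome in every group. Summed over 9 myeloid and granulocyte markers, levels were 0.786 to 1.93 CPM in WT rTreg, 6.86 to 18 in cKO rTreg, 4.49 to 5.49 in WT aTreg and 4.74 to 31.2 in cKO aTreg cells, while Elane, Mpo and Siglech were at 0 in both WT rTreg libraries. The 8 proliferation markers summed to 224 to 235 CPM in WT rTreg, 359 to 411 in cKO rTreg, 312 to 418 in WT aTreg and 587 to 708 in cKO aTreg cells. Of these 8 genes 7 were called higher in each of the genotype and subset comparisons. The proliferation sum was higher in cKO than in WT cells of the same subset, and in aTreg than in rTreg cells of the same genotype, without overlap. The myeloid sum was higher in cKO than in WT rTreg cells and in WT aTreg than in WT rTreg cells without overlap, whereas its ranges overlapped between cKO and WT aTreg cells and between cKO aTreg and cKO rTreg cells. The part of either sum in the differences below was not tested. Cd44 was higher by 2.41 in WT and 2.63 in cKO aTreg than in rTreg cells on the log2 scale, the direction in which the cells were gated. Summed Treg and subset markers lay between 3750 and 4930 CPM, B cell markers between 7.92 and 9.56 CPM in rTreg and between 18.3 and 21.2 CPM in aTreg cells, CD8 T and NK cell markers between 11.2 and 19.4 CPM and erythroid markers between 0.867 and 4.3 CPM. Fewer cells of a kind and less RNA per cell cannot be told apart in such bulk samples.

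Promoter windows of the 250 bases before a RefSeq transcription start (GRCm38.p6) were found for 39 of the 40 genes, 57 windows in all. The 4 printed here belong to genes that moved in different directions and overlap no annotated exon, and they were chosen after the values were seen. Capitals mark the hypoxia response element core ACGTG or GCGTG on either strand, which the sequence CACGTG, an E-box that Myc and Max can bind, contains on both strands.
Ldha, chr7:46845554-46845803, plus strand: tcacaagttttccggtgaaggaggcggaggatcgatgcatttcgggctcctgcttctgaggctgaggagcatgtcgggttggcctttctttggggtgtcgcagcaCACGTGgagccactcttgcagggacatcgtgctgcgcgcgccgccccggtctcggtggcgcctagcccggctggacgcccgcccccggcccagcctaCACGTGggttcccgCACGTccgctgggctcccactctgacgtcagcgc
Pgk1, chrX:106186850-106187099, plus strand: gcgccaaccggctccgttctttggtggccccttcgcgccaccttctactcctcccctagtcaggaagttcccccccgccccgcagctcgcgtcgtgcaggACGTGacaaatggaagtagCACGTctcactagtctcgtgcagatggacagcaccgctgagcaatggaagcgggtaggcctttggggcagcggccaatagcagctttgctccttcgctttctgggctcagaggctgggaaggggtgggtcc
Pgam1, chr19:41911621-41911870, plus strand: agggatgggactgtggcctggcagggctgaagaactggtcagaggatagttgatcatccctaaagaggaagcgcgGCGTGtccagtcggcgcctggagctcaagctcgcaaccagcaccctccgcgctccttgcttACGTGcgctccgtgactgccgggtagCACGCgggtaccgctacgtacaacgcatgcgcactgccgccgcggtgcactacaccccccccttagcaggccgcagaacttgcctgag
Pdk1, chr2:71872974-71873223, plus strand: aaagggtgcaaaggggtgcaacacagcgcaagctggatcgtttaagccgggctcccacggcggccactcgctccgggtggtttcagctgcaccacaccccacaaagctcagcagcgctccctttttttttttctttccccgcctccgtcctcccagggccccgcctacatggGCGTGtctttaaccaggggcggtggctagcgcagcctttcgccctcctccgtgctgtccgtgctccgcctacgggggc
The Ldha window held 2 CACGTG sequences and 1 further core, the Pgk1 window 2 cores, the Pgam1 window 3 and the Pdk1 window 1. Across the 57 windows 43 held at least 1 core, against 38.6% of the 32851 windows of all genes, and 33 of the 39 genes had a core in at least 1 window. Windows of the same gene can overlap, as for Aldoa, Eno1 and Pfkm, so a core can count more than once. No share per gene was taken over all genes. CACGTG was found in 7 of the 57 windows and in 6.02% of all windows. The forkhead letters TGTTTNC were found in 7 of the 57 windows, those of Aldoc, Eno2, Hk1, Pdk2, Pfkfb2, Pgd and Tpi1, and in 17.8% of all windows. Base composition was not matched in these counts, and a match of letters is not evidence of binding.

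Per length, as the deposited FPKM values, the most abundant transcripts in the set were those of lactate dehydrogenase A (Ldha, median 137 FPKM over the 8 libraries, range 110.0 to 168) and muscle-type pyruvate kinase (Pkm, 95.2 to 151). Enolase 1 (Eno1) stood at 76.4 to 146, phosphoglycerate kinase 1 (Pgk1) at 55.3 to 91.4, glucose-6-phosphate isomerase (Gpi1) at 55.7 to 72.1 and aldolase A (Aldoa) at 48.5 to 73.4 FPKM. These 6 genes therefore led the set by FPKM, and each had a median above that of at least 94.6% of the genes tested. Of the remaining lower glycolytic genes, Tpi1 (triosephosphate isomerase) ranged over 12.2 to 32.2, Pgam1 (phosphoglycerate mutase) over 16.2 to 36.6, Eno3 over 9.67 to 25.1, Eno2 over 0.207 to 2.52 and Aldoc over 0.398 to 1.88 FPKM. Gapdh, the glyceraldehyde-3-phosphate dehydrogenase that is among the most abundant transcripts of most tissues, ranged only over 5.32 to 9.64 FPKM. Gapdh FPKM divides by 4133 bases, the length of its merged exons, whereas its first annotated transcript has 1272. In its first annotated transcript, 85.8% of all 100-base stretches also occur in other annotated genes, and 82 of the 86 genes that share such a stretch with any Gapdh transcript are pseudogenes. Its counts are therefore uncertain, since how reads with several matches were counted is not given. The same share was 67.0% for Pgk1, 63.5% for Pfkfb2, 43.6% for Eno1, 39.7% for Pgam1 and 26.1% for Mpc1, and the levels of these genes are also uncertain.

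Upstream in the pathway, the glucose transporters Slc2a1 and Slc2a3 ranged over 14.1 to 22.1 and 14 to 24 FPKM. The hexokinases, which trap glucose in the cell, ranged over 24 to 35.6 FPKM for Hk1, 0.664 to 2.57 for Hk2 and 0.229 to 0.445 for Hk3. The 3 phosphofructokinase 1 subunits make the committed step. They ranged over 11 to 16.6 FPKM for Pfkl, 7.89 to 13.6 for Pfkm and 12 to 20.2 for Pfkp. Before division by length they were further apart, with 87.8, 38.1 and 149 CPM in the same order in WT rTreg replicate 1. Their merged exons span 6675, 3340 and 13401 bases and their first annotated transcripts 3730, 2879 and 2679. The length implied by the deposited FPKM is close to the merged exons for Pfkl, but equals neither of these lengths for Pfkm and Pfkp. The relative levels of the 3 subunits therefore depend on the length used. Of the bifunctional enzymes that set the level of fructose 2,6-bisphosphate, an activator of phosphofructokinase 1, Pfkfb3 was at 9.41 to 11.3, Pfkfb4 at 1.03 to 2.89 and Pfkfb2 at 1.07 to 2.18 FPKM, and Tigar, which degrades it, at 5.19 to 6.92. Downstream, Ldhb was at 16.9 to 32.8, the lactate exporters Slc16a1 and Slc16a3 at 3.36 to 7.31 and 1.05 to 3.51, and the pyruvate carrier subunits Mpc1 and Mpc2 at 2.32 to 3.61 and 3.31 to 4.37 FPKM. The pyruvate dehydrogenase subunits were at 54.4 to 63.1 (Pdhb), 34.3 to 48.5 (Pdha1), 17.2 to 19.7 (Dld) and 9.68 to 11 (Dlat) FPKM, and their kinases at 14.6 to 45.7 (Pdk1), 5.88 to 11 (Pdk3) and 2.86 to 7.13 (Pdk2). Hif1a ranged over 16.2 to 50, and the pentose phosphate genes over 24.5 to 75.9 (Tkt, transketolase), 10.9 to 14.8 (Pgd, 6-phosphogluconate dehydrogenase) and 10.4 to 12.6 (G6pdx, glucose-6-phosphate dehydrogenase) FPKM. Between the lowest and the highest library the relative range was widest for Eno2, Aldoc, Hk2, Slc16a3, Pdk1, Tkt and Hif1a, in that order.

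**Figure D1:**
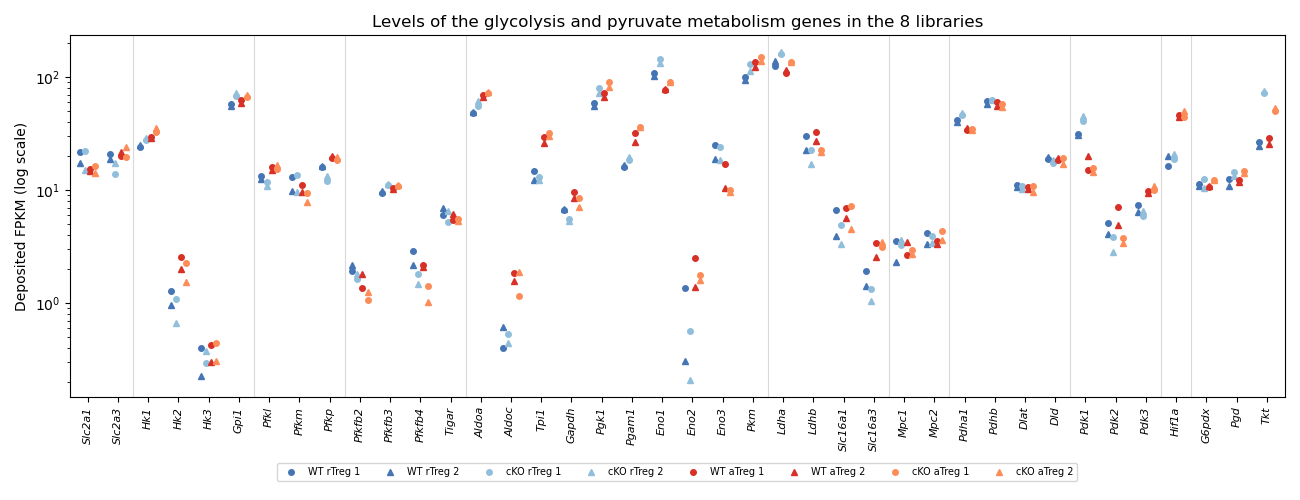
Deposited FPKM on a log axis for the 40 genes, ordered by role with grey lines between roles. Each point is 1 library, circles for replicate 1 and triangles for replicate 2, colored by group. Ldha, Pkm and Eno1 sit at the top, Hk3 has the lowest median, Eno2 reaches the lowest single value, and the groups separate visibly for Tkt, Pdk1, Hif1a and Tpi1.

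Within families, a single isozyme usually held most of the FPKM. Hk1 held 91.8% ± 1.3 (SD, n = 2) of the hexokinase FPKM in WT aTreg and 95.9% ± 0.85 in cKO rTreg cells, the lowest and the highest of the 4 groups, and Aldoa held 97.6% ± 0.21 or more of the aldolase FPKM. The make-up of the pyruvate dehydrogenase kinases differed between the subsets. Pdk1 made up 73.2% ± 1.9 of the 3 kinases in WT rTreg and 81.8% ± 1.5 in cKO rTreg cells, but 52.5% ± 7.9 in WT aTreg and 51.7% ± 2.0 in cKO aTreg cells. Pdk3 took 16.2% ± 0.78, 11.8% ± 0.14, 29.2% ± 2.4 and 36.0% ± 2.6 in the same order, so its share was higher in every aTreg library than in any rTreg library. The Ldha share of lactate dehydrogenase was 83.2% ± 3.9 in WT rTreg, 89.3% ± 2.3 in cKO rTreg, 78.9% ± 2.8 in WT aTreg and 86.1% ± 0.49 in cKO aTreg cells, higher in both cKO libraries than in both WT libraries of either subset. Pfkfb3 took 67.6% ± 2.1 of its family in WT rTreg, 77.0% ± 0.57 in cKO rTreg, 73.4% ± 1.6 in WT aTreg and 82.0% ± 1.1 in cKO aTreg cells. Slc16a3, the exporter named MCT4, took 24.4% ± 2.7 and 22.4% ± 1.8 of the 2 exporters in WT and cKO rTreg cells against 31.8% ± 1.3 and 36.8% ± 9.3 in the aTreg cells. These shares are descriptions that depend on the length per gene behind the FPKM values, and no test was run on them.

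**Figure D2:**
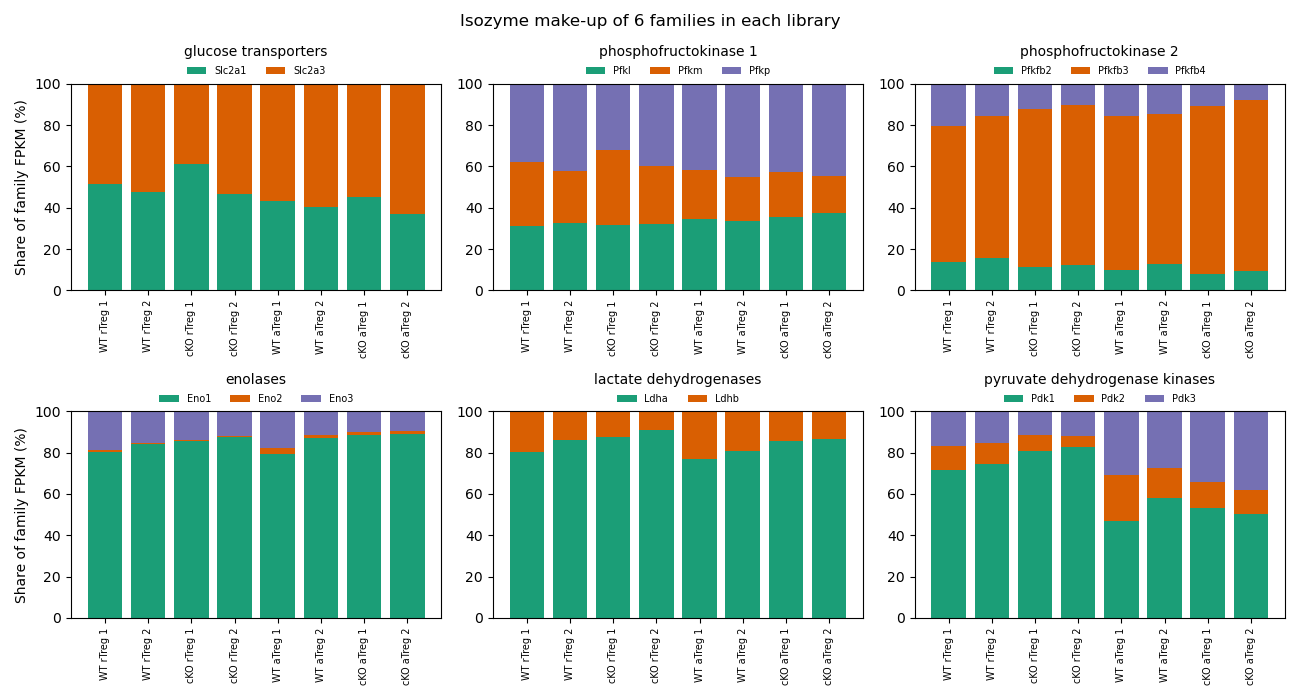
Share of each family's summed FPKM, in percent, taken by each isozyme in each of the 8 libraries, for 6 families. Bars stack to 100. Pdk1 is the largest share in 8 of 8 libraries but is smaller in all 4 aTreg libraries than in the 4 rTreg libraries.

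The first question was which of these genes differed between Foxp1-deficient and WT resting cells. In Foxp1-deficient rTreg cells, transketolase was 2.96-fold higher than in WT rTreg cells, and 10 further genes rose by under 1.5-fold each, among them Aldoa, Pgk1, Eno1 and Pkm of the main path of glycolysis, while Pfkp, Pfkfb4 and Ldhb fell. An adjusted p under 0.05 was reached by 11 higher and 3 lower genes of the 40 (edgeR's quasi-likelihood test with the replicate number as a block, Benjamini-Hochberg adjustment over all genes), against 6.57% of all genes called higher and 5.45% called lower (12.0% in either direction). The median log2 change of the 40 genes was -0.0011, beside 0.0029 over all genes tested, and 20 of the 40 values were above 0. With a change of at least 1.5-fold also required, Tkt remained among the higher and Pfkfb4 among the lower genes, beside 2.90% and 2.70% of all genes. The Pfkfb4 call (edgeR adjusted p = 0.0488) was kept under 4 of the 17 alternatives and was lost, among others, with limma-voom (adjusted p = 0.0531), with DESeq2, with the 4 rTreg libraries alone, with the trend with gene length removed and when each of the 8 libraries was left out in turn. Without the block 2 genes were higher, Tkt and Eno1, and none lower, and leaving out any 1 of the 4 rTreg libraries left 2 or 3 of the 14 calls. The levels of 14 genes were above and those of 9 below the WT levels without overlap, beside 22.9% and 22.3% of all genes.

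Transketolase, the enzyme that links the pentose phosphate pathway to glycolysis, was at 172 and 164 CPM in WT rTreg cells and at 479.9 and 515 CPM in cKO rTreg cells. In aTreg cells it was at 185 and 163 CPM in WT and 320.4 and 351 CPM in cKO cells. The 4 cKO libraries were all above the 4 WT libraries, and the rTreg libraries were the highest among the cKO cells. The log2 change was 1.56 ± 0.084 (SE, edgeR adjusted p = 8.71e-05) in rTreg cells. This call was kept under all 17 alternatives, including the fit without the block. No 100-base stretch of Tkt transcripts occurs in another annotated gene. Of the other pentose phosphate members, Pgd was at 80.2 and 72.1 CPM in WT and 95 and 89.8 in cKO rTreg cells, a log2 change of 0.28 ± 0.064 (edgeR adjusted p = 0.0302, 0.166 without the block). G6pdx, the entry enzyme, did not pass, with a log2 change of 0.068 ± 0.10 (edgeR adjusted p = 0.704).

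Among the 10 genes from aldolase to pyruvate kinase, 4 were higher in cKO rTreg cells and none lower. Pgk1, which makes the first ATP of the pathway, was at 130.5 and 127 CPM in WT and 182 and 169 in cKO rTreg cells, and Eno1 was at 579 and 561 CPM in WT rTreg and 800.1 and 745 CPM in cKO rTreg cells. Neither gene overlapped between the genotypes. Their log2 changes were 0.44 ± 0.057 (edgeR adjusted p = 0.00409, 0.0503 without the block) and 0.44 ± 0.058 (edgeR adjusted p = 0.0045, 0.0446 without the block). Pkm, which yields pyruvate, was at 495 and 489 CPM in WT and 662 and 592 in cKO rTreg cells, a log2 change of 0.35 ± 0.053 (edgeR adjusted p = 0.00801, 0.108 without the block). Aldoa rose by 0.30 (edgeR adjusted p = 0.0277, 0.156 without the block). The other genes of the same stretch did not pass, with log2 changes of 0.24 ± 0.11 for Pgam1, -0.059 ± 0.078 for Tpi1, -0.29 ± 0.10 for Gapdh, -1.06 ± 0.51 for Eno2, -0.019 ± 0.15 for Eno3 and -0.089 ± 0.40 for Aldoc.

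The lactate dehydrogenase isozymes Ldha and Ldhb were called in opposite directions, the second with an adjusted p close to the threshold. Ldha, which favors lactate formation, was at 413 and 469 CPM in WT and 537 and 578 CPM in cKO rTreg cells, and Ldhb, which favors pyruvate, at 47.3 and 36.3 CPM in WT rTreg and 35.9 and 27.6 CPM in cKO rTreg cells. The groups did not overlap for either gene, although the Ldhb values of WT replicate 2 and cKO replicate 1 were close. The log2 changes were 0.34 ± 0.053 for Ldha (edgeR adjusted p = 0.00825, 0.138 without the block) and -0.40 ± 0.11 for Ldhb (edgeR adjusted p = 0.0483, 0.31 without the block). The Ldha call was kept under 12 and the Ldhb call under 8 of the 17 alternatives, and that of Ldhb was lost with limma-voom (adjusted p = 0.055), with DESeq2 and when each of 6 of the 8 libraries was left out in turn. The exporters Slc16a1 (-0.31 ± 0.13) and Slc16a3 (-0.47 ± 0.21) did not pass.

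At the entry of pyruvate into mitochondria, Pdk1, the kinase that inhibits pyruvate dehydrogenase, was at 245 and 244 CPM in WT rTreg and 322 and 369 CPM in cKO rTreg cells. Pdha1, the catalytic subunit that it phosphorylates, was at 154 and 153 CPM in WT rTreg and 177 and 188 CPM in cKO rTreg cells. Both were higher in each cKO library than in either WT library. Pdk1 rose by 0.50 ± 0.11 (edgeR adjusted p = 0.0251, 0.133 without the block) and Pdha1 by 0.25 ± 0.058 (edgeR adjusted p = 0.0328, 0.151 without the block) on the log2 scale. The log2 changes of the other kinases were -0.44 ± 0.15 (Pdk2) and -0.11 ± 0.13 (Pdk3), those of the other subunits 0.11 ± 0.063 (Pdhb), -0.0077 ± 0.065 (Dlat) and -0.064 ± 0.075 (Dld), and those of the carrier subunits 0.27 ± 0.25 (Mpc1) and 0.0055 ± 0.093 (Mpc2), and none of these passed.

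In the upper part of the pathway the calls went both ways. Gpi1 rose from 368 and 369 CPM to 447 and 483 CPM, a log2 change of 0.34 ± 0.065 (edgeR adjusted p = 0.0185, 0.108 without the block). Pfkp, a phosphofructokinase 1 subunit, fell from 149 and 157 to 115 and 131 CPM, a log2 change of -0.32 ± 0.061 (edgeR adjusted p = 0.0185, 0.175 without the block). The subunits Pfkl (-0.16 ± 0.079) and Pfkm (0.027 ± 0.10) did not pass. Of the bifunctional enzymes, Pfkfb4 was at 14 and 10.9 CPM in WT and 8.93 and 7.44 CPM in cKO rTreg cells, a log2 change of -0.60 ± 0.16 (edgeR adjusted p = 0.0488, 0.22 without the block). Pfkfb3, whose kinase activity is the strongest of the family, changed the other way, by 0.25 ± 0.062 (edgeR adjusted p = 0.0394, 0.178 without the block), and Pfkfb2 did not pass, with a value of -0.25 ± 0.14 (edgeR adjusted p = 0.284). Slc2a1 (-0.073 ± 0.11), Slc2a3 (-0.33 ± 0.11), Hk1 (0.23 ± 0.063), Hk2 (-0.38 ± 0.17), Hk3 (0.26 ± 0.40), Tigar (-0.11 ± 0.12) and Hif1a (0.16 ± 0.093) did not pass.

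**Figure D3:**
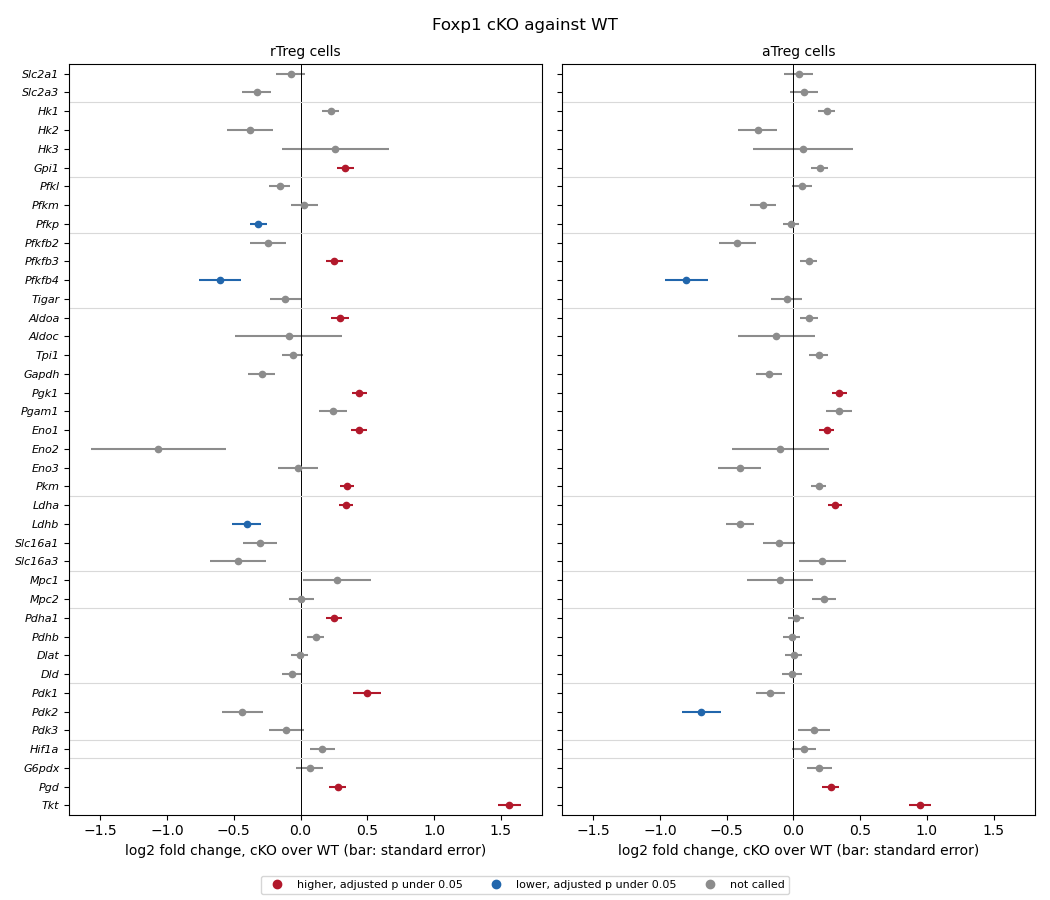
Log2 fold change of cKO over WT with its standard error for each of the 40 genes, in rTreg cells (left) and aTreg cells (right), colored by the call at adjusted p under 0.05. Tkt stands apart at 1.56 and 0.95. The other genes called higher lie between 0.25 and 0.50 in rTreg cells.

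The same question in activated cells gave fewer calls. In Foxp1-deficient aTreg cells, Tkt, Pgk1, Ldha, Pgd and Eno1 were higher and Pfkfb4 and Pdk2 lower than in WT aTreg cells, 5 and 2 of 40 genes, against 4.11% of all genes called higher and 2.77% lower (6.88% in either direction). The median log2 change was 0.052 over the 40 genes and 0.0019 over all genes tested. At 1.5-fold, 1 gene was higher (Tkt) and 2 were lower, beside 2.37% and 1.66% of all genes. Without the block Tkt alone was called (edgeR adjusted p = 0.0183), and it was also the single call left when WT aTreg replicate 2, cKO aTreg replicate 1 or cKO aTreg replicate 2 was left out. The cKO aTreg replicate 1 library held the highest myeloid marker sum, whose part in these calls was not tested. Levels lay above WT without overlap in 15 genes and below in 6, beside 22.2% and 19.6% of all genes.

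Tkt rose by 0.95 ± 0.083 on the log2 scale (edgeR adjusted p = 0.00169), a 1.93-fold difference. Pgk1 was at 158 and 146 CPM in WT aTreg and 199 and 186 CPM in cKO aTreg cells, a log2 change of 0.34 ± 0.057 (edgeR adjusted p = 0.0156, 0.156 without the block). Ldha was at 353 and 377 CPM in WT aTreg and 440.4 and 462 CPM in cKO aTreg cells, a change of 0.31 ± 0.053 (edgeR adjusted p = 0.0168, 0.251 without the block). Both genes separated the genotypes completely. Pgd changed by 0.28 ± 0.063 (edgeR adjusted p = 0.0399, 0.245 without the block) and Eno1 by 0.25 ± 0.059 (edgeR adjusted p = 0.0473, 0.259 without the block). Pfkfb4 was at 10.4 and 9.94 CPM in WT and 6.71 and 5.1 CPM in cKO aTreg cells, a change of -0.80 ± 0.16 (edgeR adjusted p = 0.0282, 0.206 without the block). Pdk2 was at 21.9 and 15.2 CPM in WT aTreg and 11.6 and 11 CPM in cKO aTreg cells, a change of -0.69 ± 0.14 (edgeR adjusted p = 0.0328, 0.26 without the block). The Pdk2 groups did not overlap, although the WT libraries differed from each other by more than WT replicate 2 did from the cKO libraries. The calls of Eno1, Pgd and Pdk2 were each kept under 6 of the 17 alternatives. Pdk1 (-0.17 ± 0.11) and Pdk3 (0.15 ± 0.12), Pfkfb3 (0.11 ± 0.061) and Pfkfb2 (-0.42 ± 0.14), Ldhb (-0.40 ± 0.10) and Eno3 (-0.40 ± 0.16) did not pass.

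The rTreg and aTreg genotype comparisons use different libraries. All 5 genes called higher in aTreg cells (100%) were among the 11 called higher in rTreg cells (45.5%). Pfkfb4 was the 1 gene called lower in both, and none was called in opposite directions. The overlap of calls over all genes was not taken, so whether these shares are particular to the 40 genes is not known. Whether the genotype difference itself differed between the subsets was tested as an interaction. No gene of the 40 passed by edgeR's quasi-likelihood test, beside 0.186% of all genes called higher and 0.144% lower (0.330% in either direction), and 7 had an unadjusted p under 0.05, beside 12.8% of all genes. The lowest adjusted p was that of Tkt, whose genotype difference in aTreg minus that in rTreg cells was -0.61 ± 0.12 on the log2 scale (edgeR adjusted p = 0.0741). The others of the 7 were Pdk1 at -0.67 ± 0.15 (edgeR adjusted p = 0.115), Slc16a3 at 0.68 ± 0.27 (edgeR adjusted p = 0.348), Slc2a3 at 0.41 ± 0.15, Pfkp at 0.29 ± 0.086, Tpi1 at 0.25 ± 0.10 and Pdha1 at -0.23 ± 0.082. DESeq2 and the fit without a filter on low counts each called Tkt and Pdk1 for this difference.

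**Figure D4:**
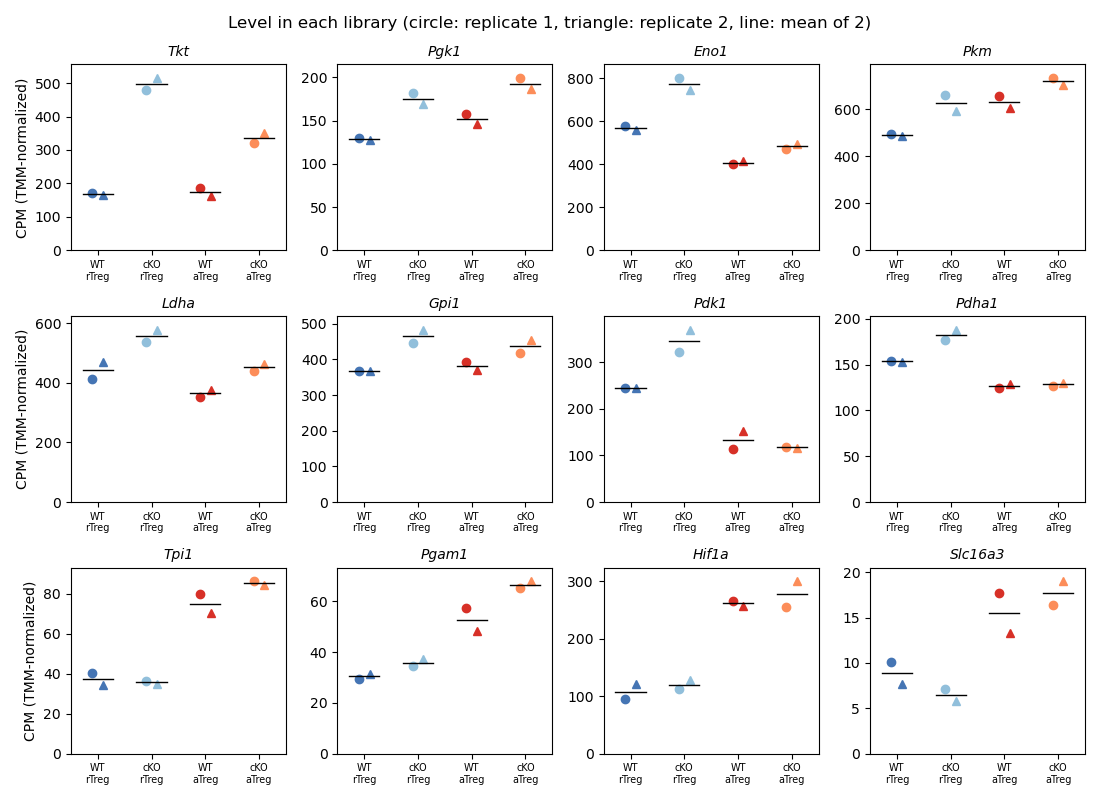
CPM in each library, on axes that start at 0, for 12 of the genes. Circles are replicate 1, triangles replicate 2 and lines the means of 2 libraries. Tkt separates the genotypes, Tpi1, Pgam1 and Hif1a separate the subsets, and Pdk1 is high in rTreg cells and highest in cKO rTreg cells.

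The second question was how the pathway differed between activated and resting cells. In WT cells the genes from aldolase to pyruvate kinase all passed the test, 8 higher and 2 lower in aTreg cells, and Hif1a was 2.44-fold higher, while Pdk1, Eno1 and Ldha were lower. Of the 40 genes 14 were higher and 7 lower, against 18.2% of all genes called higher and 13.6% lower (31.9% in either direction). The median log2 change was 0.052, beside -0.0046 over all genes. At 2-fold, 4 were higher and none lower, beside 9.50% and 2.83% of all genes. Without the block 6 were higher and 3 lower, and 11 to 16 of the 21 calls remained when 1 of the 4 WT libraries was left out. Levels lay above without overlap in 16 genes and below in 12, beside 30.1% and 26.8% of all genes.

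Hif1a, the oxygen-regulated transcription factor, was at 95 and 121 CPM in WT rTreg and 266 and 257 CPM in WT aTreg cells, a log2 change of 1.29 ± 0.092 (edgeR adjusted p = 5.91e-05). Tpi1, which interconverts the triose phosphates, was at 40.2 and 34.6 CPM in WT rTreg and 79.8 and 70.1 CPM in WT aTreg cells, a change of 1.00 ± 0.073 (edgeR adjusted p = 6.58e-05). Pgam1 was at 29.4 and 31.5 CPM in WT rTreg and 57.2 and 48.1 CPM in WT aTreg cells, a change of 0.78 ± 0.10 (edgeR adjusted p = 0.000998). These 3 genes were higher in both aTreg libraries and kept their call under all 17 alternatives, as did Aldoa and Pkm. Aldoa was at 181 and 189.6 CPM in WT rTreg and 254 and 248 CPM in WT aTreg cells, a change of 0.44 ± 0.066 (edgeR adjusted p = 0.00185), and Pkm changed by 0.36 ± 0.053 (edgeR adjusted p = 0.00182). The largest changes were at low levels, in the isozymes best known from brain. Aldoc was at 1.29 and 2.04 CPM in WT rTreg and 5.82 and 5.07 CPM in WT aTreg cells (1.69 ± 0.33, edgeR adjusted p = 0.00667), and Eno2 at 6.36 and 1.49 CPM in WT rTreg and 11.5 and 6.41 CPM in WT aTreg cells (1.30 ± 0.40, edgeR adjusted p = 0.041, 0.284 without the block). The Eno2 values of WT rTreg replicate 1 and WT aTreg replicate 2 were close to each other. Hk2, the inducible hexokinase, was at 7.64 and 5.89 CPM in WT rTreg and 14.9 and 11.7 CPM in WT aTreg cells (0.98 ± 0.15, edgeR adjusted p = 0.00235, 0.0653 without the block).

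The further higher genes in WT aTreg cells were Slc16a3 (0.79), Pdk3 (0.44), Gapdh (0.36), Pfkp (0.24), Pgk1 (0.24) and Hk1 (0.21) on the log2 scale, none of which passed without the block (Slc16a3 had an edgeR adjusted p of 0.053 there). Against this direction, Pdk1 fell from 245 and 244 CPM in WT rTreg to 114 and 152 CPM in WT aTreg cells, a log2 change of -0.89 ± 0.11 (edgeR adjusted p = 0.000695). Eno1, the main enolase, fell from 579 and 561 to 399.8 and 414 CPM, a change of -0.49 ± 0.059 (edgeR adjusted p = 0.000673). These calls were kept under all 17 alternatives. Eno3 changed by -0.75 ± 0.15 (edgeR adjusted p = 0.00764, 0.0939 without the block), so that Eno1 and Eno3 fell where Eno2, at far lower levels, rose. Ldha was at 413 and 469 CPM in WT rTreg and 353 and 377 CPM in WT aTreg cells, a change of -0.27 ± 0.053 (edgeR adjusted p = 0.0063, 0.0995 without the block). On the log2 scale Pdha1 changed by -0.28 (edgeR adjusted p = 0.00906), Pfkfb2 by -0.43 (edgeR adjusted p = 0.0442, 0.228 without the block) and Slc2a1, the basal glucose transporter, by -0.42 (edgeR adjusted p = 0.0215, 0.16 without the block). Slc2a3 (0.028 ± 0.10), Gpi1 (0.052 ± 0.065), Ldhb (0.15 ± 0.10), Slc16a1 (0.26 ± 0.12) and the 3 pentose phosphate genes did not pass, among them Tkt at 0.048 ± 0.083.

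**Figure D5:**
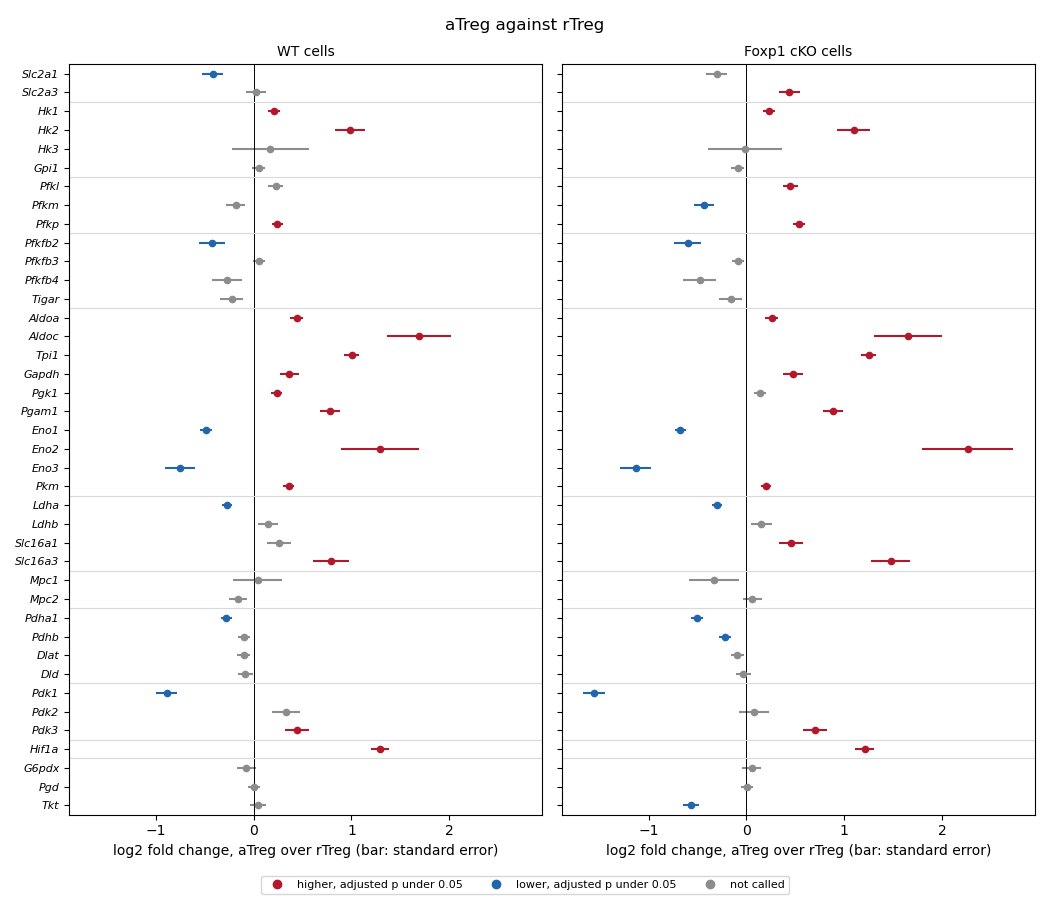
Log2 fold change of aTreg over rTreg cells with its standard error for the 40 genes, in WT cells (left) and Foxp1-deficient cells (right), colored by the call at adjusted p under 0.05. Hif1a, Tpi1, Pgam1, Aldoc and Eno2 lie to the right and Pdk1, Eno1 and Eno3 to the left in both genotypes.

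The same comparison in Foxp1-deficient cells used 4 other libraries within the same fit. Of the 40 genes 16 were higher and 9 lower in cKO aTreg than in cKO rTreg cells, against 21.9% of all genes called higher and 18.2% lower (40.1% in either direction), and the median log2 change was 0.058, beside -0.018 over all genes. At 2-fold, 6 were higher and 2 lower, beside 11.3% and 4.39% of all genes. Of the 14 genes higher in WT aTreg cells, 13 (92.9%) were among the 16 higher in cKO aTreg cells (81.2%), and of the 7 lower in WT aTreg cells, 6 (85.7%) were among the 9 lower in cKO aTreg cells (66.7%). None was called in opposite directions. No such overlap was taken over all genes, so these shares cannot be read as particular to the 40 genes. Without the block 10 were higher and 5 lower, and 17 or 18 of the 25 calls remained when 1 of the 4 cKO libraries was left out. The groups did not overlap for 16 genes above and 13 below, beside 31.4% and 30.3% of all genes.

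Pdk1 fell in cKO cells from 322 and 369 CPM in rTreg to 119 and 115 CPM in aTreg cells, a log2 change of -1.56 ± 0.11 (edgeR adjusted p = 3.55e-05). The 4 aTreg libraries of both genotypes lay together below all rTreg libraries. Tpi1 was at 36.5 and 35 CPM in cKO rTreg and 86.1 and 84.1 CPM in cKO aTreg cells (1.25 ± 0.075, edgeR adjusted p = 1.78e-05), and Hif1a at 112 and 128 CPM in cKO rTreg and 256 and 299.9 CPM in cKO aTreg cells (1.21 ± 0.092, edgeR adjusted p = 5.2e-05). Slc16a3, the exporter of glycolytic cells, was at 7.17 and 5.78 CPM in cKO rTreg and 16.4 and 19 CPM in cKO aTreg cells (1.47 ± 0.20, edgeR adjusted p = 0.00079). Eno2 was at 2.71 and 1.01 CPM in cKO rTreg and 8.13 and 7.62 CPM in cKO aTreg cells (2.26 ± 0.47, edgeR adjusted p = 0.0063, 0.0712 without the block), Aldoc changed by 1.65 ± 0.35 (edgeR adjusted p = 0.0072) and Hk2 by 1.09 ± 0.17 (edgeR adjusted p = 0.00146). Eno3 was at 42.2 and 33.5 CPM in cKO rTreg and 17 and 17.1 CPM in cKO aTreg cells (-1.13 ± 0.16, edgeR adjusted p = 0.000913), and Eno1 at 800.1 and 745 CPM in cKO rTreg and 472 and 495 CPM in cKO aTreg cells (-0.68 ± 0.059, edgeR adjusted p = 9.45e-05). Both enolases were lower in each cKO aTreg library.

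Among the 25 calls, 6 genes were called in cKO cells and not in WT cells. Tkt changed by -0.57 (edgeR adjusted p = 0.00118), Pfkm by -0.44 (edgeR adjusted p = 0.0106, 0.148 without the block) and Pdhb by -0.22 (edgeR adjusted p = 0.0252, 0.0816 without the block), and in the other direction Pfkl changed by 0.45 (edgeR adjusted p = 0.00298), Slc2a3 by 0.44 (edgeR adjusted p = 0.0128, 0.0754 without the block) and Slc16a1 by 0.45 (edgeR adjusted p = 0.0228, 0.322 without the block) on the log2 scale. The Slc16a1 libraries of the subsets overlapped. The differences of these genes between the genotypes are the interactions above, none of which passed. The rest of the higher genes were Pgam1 (0.88), Pdk3 (0.70), Pfkp (0.54), Gapdh (0.47), Aldoa (0.26), Hk1 (0.23) and Pkm (0.20), and the rest of the lower genes Pfkfb2 (-0.60), Pdha1 (-0.51) and Ldha (-0.30). Aldoa, Hk1, Pkm, Pfkfb2 and Ldha did not pass without the block.

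Genes of neighboring pathways were taken from 6 further lists, whose counts stand beside the 6.57% of all genes called higher and 5.45% called lower in Foxp1-deficient rTreg cells. In these cells 3 of 20 other glycolysis and glucose transport genes were higher and none lower, namely Ldhd (1.24), Pgm2l1 (0.90) and Eno1b (0.50) on the log2 scale. Eno1b is a near copy of Eno1 and shares sequence with it, so the 2 values are not independent. Of 9 other pentose phosphate genes 3 were higher, which were Prps1 (0.47, phosphoribosyl pyrophosphate synthesis), H6pd (0.41) and Taldo1 (0.32, transaldolase), and none lower. Of 19 genes of the tricarboxylic acid cycle 3 were higher and none lower, with Idh3a, a subunit of isocitrate dehydrogenase, at 1.09 (edgeR adjusted p = 0.000127), Suclg1 at 0.31 and citrate synthase (Cs) at 0.26. Of 13 other pyruvate genes 1 was lower (Acss1, -0.56). Among 15 regulators Epas1, which encodes HIF-2α, was higher (1.02) and Txnip, an inhibitor of glucose uptake, lower (-0.82, edgeR adjusted p = 0.0041). Of 12 targets of HIF outside glycolysis P4ha1 was higher (0.82) and Ndrg1 (-0.85), Ddit4 (-0.43) and Kdm3a (-0.33) lower.

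In Foxp1-deficient aTreg cells, where 4.11% of all genes were called higher and 2.77% lower, Pgm2l1 (1.20), Bpgm (0.77) and Emb (0.48, a partner of lactate transporters) were higher among the 20 genes, and Idh3a (0.79) was the 1 called gene of the cycle. Acly was the 1 pyruvate gene (0.26), no other pentose phosphate gene passed, and Epas1 (1.62), Egln3 (0.67) and Txnip (-0.55) were called among the regulators. P4ha1 (0.64), Egln3 and Ero1l (0.47) were higher among the 12 HIF targets and none was lower.

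Between the subsets in WT cells, 8 of the 20 other glycolysis genes were higher and 6 lower in aTreg cells, and in cKO cells 8 and 5. Over all genes 18.2% were called higher and 13.6% lower in WT cells, and 21.9% and 18.2% in cKO cells. The largest were Slc2a6, a lysosomal hexose transporter (2.81 in WT and 3.15 in cKO cells), Galm (1.62 and 1.69) and Ldhd (-1.39 and -2.64) on the log2 scale. Of 13 pyruvate genes 1 was higher and 4 lower in WT and 1 and 5 in cKO cells, with Pck2 up (0.89 and 1.37) and Acss2 (-0.96 and -1.29) and Me2 (-0.80 and -0.96) down. The tricarboxylic acid cycle had 1 higher and none lower of 19 in WT and 1 and 4 in cKO cells, and the other pentose phosphate genes 2 and 0 of 9 in WT and 3 and 2 in cKO cells. Of 15 regulators 3 were higher and 3 lower in WT cells, and 5 and 3 in cKO cells. Among them Egln3, the oxygen-sensing hydroxylase that is itself a HIF target, was higher (2.36 and 2.56), as was Epas1 (1.71 and 2.31). Myc was lower (-0.69, edgeR adjusted p = 0.00425, and -1.13, edgeR adjusted p = 0.000308). The HIF targets outside glycolysis gave 2 higher and 4 lower of 12 in WT and 2 higher and 1 lower in cKO cells. The higher targets in both genotypes were Egln3 and Ero1l (0.33 in WT and 0.56 in cKO cells). P4ha1 was lower in both (-0.63 and -0.82), and Ndrg1 (-0.81), Ddit4 (-0.29) and Kdm3a (-0.22) were lower in WT cells.

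Between the replicate numbers, 4 of the 40 genes were lower in the replicate 2 libraries and none higher, beside 8.71% and 9.79% of all genes (18.5% in either direction). These were Slc16a1 (-0.53 ± 0.088 on the log2 scale, edgeR adjusted p = 0.00758), Hk2 (-0.45 ± 0.11, edgeR adjusted p = 0.0299), Pfkm (-0.31 ± 0.071, edgeR adjusted p = 0.0239) and Ldhb (-0.26 ± 0.074, edgeR adjusted p = 0.0491). Xist differed between the replicate numbers in every group, so sex differs with the number. The paper reports rounds of RNA sequencing, but nothing ties them to the replicate numbers. Sex, mouse and any batch cannot be told apart in this difference. The 4 genes of the set on chromosome X, Pgk1, Pdha1, Pdk3 and G6pdx, did not pass it, with log2 values of -0.087 ± 0.04, 0.04 ± 0.041, 0.036 ± 0.089 and -0.034 ± 0.069.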

How the data were processed

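RNA from sorted WT and Foxp1-deficient rTreg and aTreg cells was sequenced as 8 libraries. The authors used trim_galore for trimming, Picard to drop duplicate reads and htseq-count for counting, and the deposited counts are whole reads per Ensembl gene. HISAT2 2.0.5, HTSeq and mm10 are named in the submitters' processing notes, whereas annotation release, strand and multi-mapping settings are not given in the sources used here. Removing duplicates can lower the counts of abundant genes. The deposited FPKM values equal the count divided by the library total and 1 length per gene. For Gapdh and Mpc2 that length matches the merged exons of all annotated transcripts, 4133 and 7344 bases. Their first annotated transcripts have 1272 and 1025 bases. The ranking by FPKM and the isozyme shares depend on this length.

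The count test was edgeR 4.0.16 (glmQLFit, glmQLFTest, under R 4.3.3) after TMM normalization and filterByExpr (minimum count 10), which kept 14540 genes and left out 13054. The 8 libraries shared 1 fit of group means plus a replicate block, leaving 3 residual degrees of freedom, and p-values were adjusted by Benjamini-Hochberg over all genes. The pairing follows the study's paired analysis against a batch effect. Deviations of same-numbered libraries from their group means correlated at 0.462 (rTreg genotypes), 0.38 (aTreg genotypes), 0.597 (WT subsets) and 0.548 (cKO subsets). Errors of fold changes are standard errors derived from the test, as the absolute log2 fold change divided by the square root of its F statistic. Levels in the text are TMM-normalized CPM. The Xist counts differ between the replicate numbers in every group, so the libraries within a group were not drawn from the same set of mice. Whether same-numbered libraries share mice, and how many mice gave a library, is not stated. The p-values measure the spread between these libraries that remains after the replicate block is taken out. The steps were tested on data simulated for the rTreg genotype comparison, with 50 genes changed at each fold. Called were 18 of 50 at 1.5-fold, 37 at 2-fold, 41 at 3-fold and 27 at 0.5-fold, beside 16 unchanged genes that were called falsely. Far fewer genes were changed, among 14134 tested, than the 1748 called in the real comparison, and the size of the replicate effect was set by assumption. These rates therefore need not hold for the real comparison.

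Groups are those of the labels. A further marker of the sort is not reported here. The 40 genes, the other lists and the tests were chosen with earlier results of these data known. Every gene of the set was named, called genes in order of size, and up to 4 called genes of each other list. Alternatives were no block, limma-voom (limma 3.58.1), median-of-ratios scaling, DESeq2 1.42.0, a filter of 1 CPM in 2 libraries or none, robust dispersion, only the libraries compared, removal of the trend with gene length, and each library left out, 17 in all. Loci and shared 100-base stretches are from GENCODE M21 (GRCm38).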

Additional observations from a re-analysis of the deposited data

How the results depend on the processing

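No alternative reversed a called gene of the set. The replicate block decided most: without it 2 genes were higher and 0 lower between the genotypes in rTreg cells, 1 and 0 in aTreg cells, and 6 and 3 (WT) and 10 and 5 (cKO) between the subsets, and over all genes calls fell from 1748 to 300, from 1001 to 81, from 4631 to 2373, from 5828 to 3482 and, for the interaction, from 48 to 0. The cause was not tested. Over all genes the aTreg genotype comparison gave 1844 calls without a filter and 421 with its own libraries, and the interaction gave 279 with DESeq2, 573 without a filter and 186 with robust dispersion. The rTreg genotype comparison had 1 lower gene with limma-voom and 1 with DESeq2. The aTreg genotype comparison had 0 lower genes with DESeq2, 1 higher and 0 lower with its 4 libraries alone, and 9 higher without a filter. The interaction had 2 lower genes with DESeq2, 2 without a filter and 1 with robust dispersion. The replicate numbers, for which the alternatives were added after seeing the data, had 2 lower genes with DESeq2 and 3 higher and 7 lower without a filter.

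With 1 library left out, the lone library of a group is assumed to vary like the others. Genes called higher and lower then ranged over 2 to 12 and 0 to 2 (rTreg genotypes), 1 to 4 and 0 to 1 (aTreg genotypes), 7 to 15 and 3 to 6 (WT subsets), 10 to 16 and 6 to 10 (cKO subsets), 0 to 0 and 0 to 1 (interaction) and 0 to 1 and 1 to 5 (replicate numbers). Over all genes the calls ranged over 245 to 1772, 126 to 768, 2633 to 4445, 3597 to 5849, 1 to 167 and 1123 to 1792 in the same order. At 2 libraries per group and 3 residual degrees of freedom, most calls under 1.5-fold between the genotypes were lost without the pairing. With the fold also required, the rTreg genotype count fell from 2 to 1 (Pfkfb4 lost) without the block, with limma-voom, with DESeq2, with its own libraries, with the length trend removed and without any 1 library. The aTreg genotype count fell from 3 to 1 without the block, with DESeq2 and with its own libraries, and to 1 or 2 without 1 library. The cKO subset count fell from 8 to 5 without cKO rTreg replicate 2. The other alternatives changed no count of called genes at adjusted p under 0.05 by more than 1.5 times.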
